A study of Mus musculus with 11 samples.

Results

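The cytoplasmic ribosomal protein genes, which encode the proteins of the cell's main ribosomes, were followed through a change of culture medium in mouse neural stem cells. They were chosen by gene symbol alone, as the rows named Rpl or Rps with a number, together with Rplp0, Rplp1, Rplp2 and Rpsa. The rule found 77 of the 37991 genes in the table, 46 of the large subunit and 31 of the small subunit. Fau, which encodes a ribosomal protein fused to another protein, has another name and fell outside the rule, as did the paralogs and the pseudogenes.

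Each ribosome carries a single copy of nearly every ribosomal protein, apart from the stalk, so cells need the products of these genes in near-equal amounts. Their messenger RNAs are abundant and short, and most begin with a run of pyrimidines, the terminal oligopyrimidine (TOP) motif, through which the mTOR pathway controls their translation. Growing and dividing cells, neural stem cells among them, are known for high ribosome production, which is lowered as they leave the cell cycle.

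Cells from the frontal cortex of C57BL/6J embryos at embryonic day 14.5 had been cultured in Complete Embryonic NeuroCult Proliferation Medium and were sampled at day 0 (group NSC, 3 libraries). Day 4 cultures had received an astrocyte medium (Dulbecco's Modified Eagle Medium with N-2 supplements and fetal bovine serum; group Astrocyte, 3 libraries), a medium for neurons that holds B-27 in Neurobasal (group Neuron, 3 libraries), or the neuron recipe plus T3, a thyroid hormone, at 30 ng/mL (group Oligodendrocyte, 2 libraries). All day 4 media contained GlutaMAX-1, and no transgene or deletion is named for any group. There was no day 4 culture in the proliferation medium, so time and the new medium cannot be told apart in any comparison with NSC. The design text calls the replicates biological, without naming animals or cultures, so p-values measure only the spread between these libraries.

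The group names stand for media, not for purified cells. Markers of dividing cells (4 genes) summed to 1839 to 1955 CPM (read counts scaled to a common library total) in NSC and to 30.6 to 77.1 CPM at day 4. In Neuron the 4 matched neuron markers summed to only 135 to 213 CPM, beside 6839 to 7421 CPM for 5 astrocyte markers and 2498 to 2673 CPM for 5 oligodendrocyte markers. In Astrocyte the astrocyte markers summed to 11048 to 12670 CPM, beside 148 to 202 CPM for the neuron markers. In Oligodendrocyte the oligodendrocyte markers summed to 2390 to 2731 CPM, beside 2051 to 2262 CPM for the astrocyte markers. Single astrocyte markers were split between Astrocyte and Neuron. In the test described below, 2 were higher in Astrocyte and 3 were lower. Progenitor markers (5 genes) summed to 3124 to 3500.3 CPM in NSC and 1248 to 2042 CPM at day 4. Single progenitor markers went both ways. In the same test, 3 rose and 2 fell from NSC to Neuron. To Astrocyte 2 rose and 3 fell, and to Oligodendrocyte 0 rose and 3 fell. Microglial markers summed to at most 0.27 CPM, endothelial markers to 7.29 CPM and mesenchymal markers to 42.4 CPM, and the blood markers Hba-a1 and Hbb-b1 were at 0 in every library. The estimated depth was 49.3 to 66.2 M reads a library. NSC replicate 3, Astrocyte replicate 3 and Neuron replicate 2 stood apart from their groups on the high side in short transcripts. Other libraries lay on the low side, NSC replicate 2 nearly as far. Results are given with and without the 3 high libraries below.

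Ribosomal protein RNA was highest in the stem cells and lowest in the astrocyte medium. The 77 genes together took 31928, 30285 and 34998 CPM in the NSC libraries, 20091, 26669 and 20966 CPM in Neuron, 14126 and 15251 CPM in Oligodendrocyte, and 11965, 12181 and 13881 CPM in Astrocyte. Group means of the share of the CPM scale, each ± SD, were 3.24% ± 0.239 for NSC (n = 3), 2.26% ± 0.357 for Neuron (n = 3), 1.47% ± 0.0792 for Oligodendrocyte (n = 2) and 1.27% ± 0.105 for Astrocyte (n = 3). Every day 4 library was below every NSC library, and every Neuron library was above all Oligodendrocyte and Astrocyte libraries. Oligodendrocyte and Astrocyte did not overlap either, but the highest Astrocyte library lay only just under the lower Oligodendrocyte library. Relative to NSC, the summed level was 69.7% in Neuron, 45.3% in Oligodendrocyte and 39.1% in Astrocyte. The share of the CPM scale from the mitochondrial genome also differed between groups, at 4.64% ± 0.0874 for NSC, 7.48% ± 0.762 for Astrocyte and 7.55% ± 1.18 for Neuron (SD, n = 3 each), and 6.42% ± 0.403 for Oligodendrocyte (SD, n = 2). It was highest in Neuron replicate 2 (8.91%), and its part in the fall was not tested. These are shares of the sequenced RNA of a whole culture, in which fewer cells with high levels and less RNA per cell cannot be told apart.

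**Figure D1:**
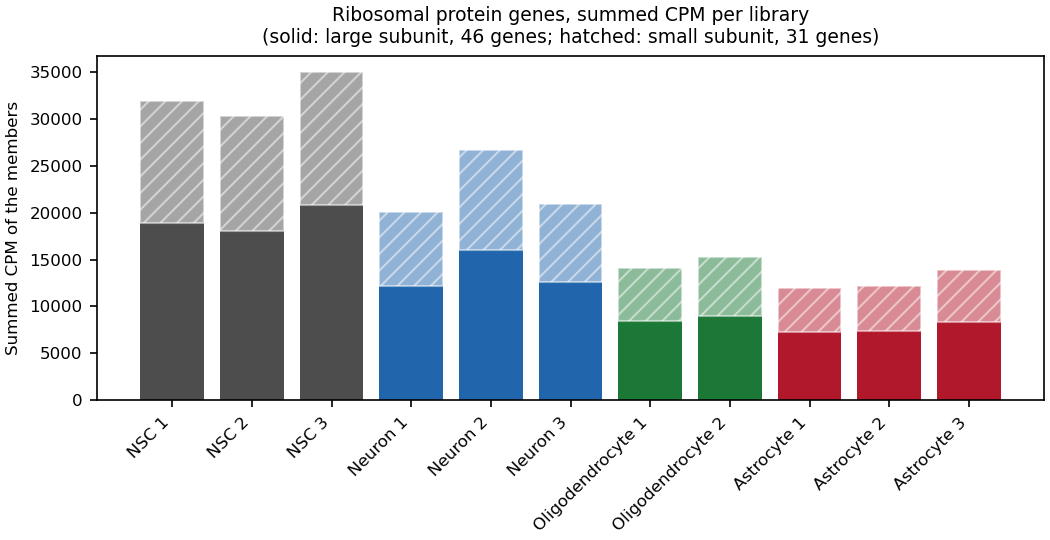
Summed CPM of the 77 ribosomal protein genes in each of the 11 libraries, in bars that start at 0, with the 46 large subunit genes solid and the 31 small subunit genes hatched. NSC libraries lie between 30285 and 34998 CPM, Neuron between 20091 and 26669, Oligodendrocyte between 14126 and 15251 and Astrocyte between 11965 and 13881.

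The fall was shared by nearly all members. All 77 passed the filter on low values, and the lowest value of any member in any library was 49.9 CPM, so no member depended on the filter. In limma's test on log2(CPM + 1), with p-values adjusted over all 13342 genes tested and a threshold of 0.05, 77 of 77 members fell from NSC to Astrocyte, against 35.6% of all tested genes. From NSC to Oligodendrocyte 77 of 77 fell, against 32.2% of all tested genes (48.1% rose); under median-of-ratios scaling 40.6% of all genes fell and 40.4% rose. From NSC to Neuron 66 of 77 fell, against 39.6%. The median log2 fold change of the members was -1.33 in Astrocyte, -1.09 in Oligodendrocyte and -0.53 in Neuron, while the medians over all tested genes were 0.15, 0.19 and 0.06. In linear terms the median member was 2.52 times lower in Astrocyte, 2.13 times lower in Oligodendrocyte and 1.44 times lower in Neuron. The same 3 NSC libraries served all 3 comparisons.

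Few members fell by less than 2-fold in the astrocyte medium, and few by more in the neuron medium. By limma, members that were called and were 2-fold or more below NSC numbered 69 in Astrocyte, 54 in Oligodendrocyte and 3 in Neuron. Of all tested genes, 12.3%, 10.7% and 13.8% met the same rule. The 3 in Neuron were Rpsa, Rpl12 and Rps2. Ranges of the libraries were separate for 77 members in Astrocyte and 77 in Oligodendrocyte, all lower than NSC, against 36.9% and 36.5% of all tested genes. In Neuron 57 members were lower without overlap, against 39.7% of all tested genes, and 20 overlapped. No member was called higher than NSC by limma, where 48.0% of all tested genes were in Astrocyte, 48.1% in Oligodendrocyte and 43.5% in Neuron, and at an unadjusted p under 0.05 the number was also 0. Across the 3 comparisons 66 members were called lower each time.

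**Figure D2:**
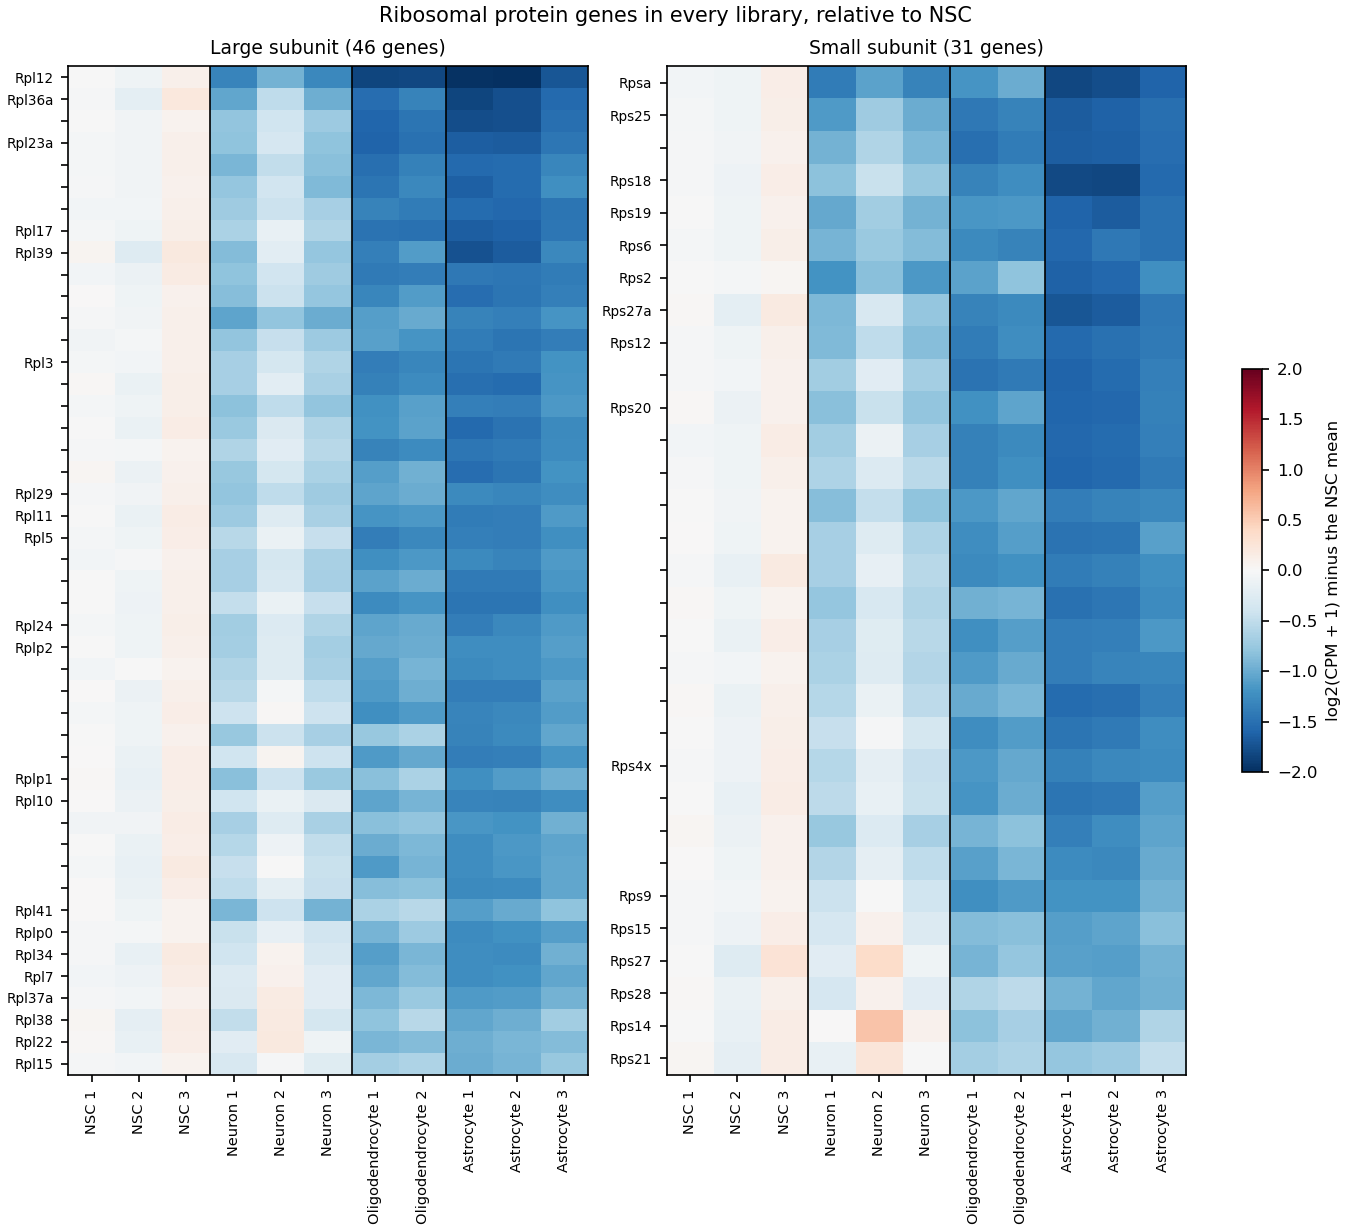
log2(CPM + 1) of each of the 77 members (rows, by subunit, those described in the text labelled, ordered by their mean change at day 4) in each of the 11 libraries (columns), minus the mean of the NSC libraries, in colour from -2 (blue) to 2 (red). Rpl12 and Rpsa lead the falls, Rps14, Rps21 and Rps27 stay near the NSC level in the Neuron libraries, and Neuron replicate 2 is above the other Neuron libraries in all 77 rows.

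The media also differed from each other. Astrocyte was below Neuron for 76 of 77 members in limma's test (background 22.0% of all tested genes), with a median of -0.82 against 0.10 over all tested genes. The libraries did not overlap for the same number, 76, against 21.8% of all tested genes. Oligodendrocyte was below Neuron for 71 members (background 23.6%), with a median of -0.63 against 0.15, and 71 did not overlap (background 26.7%). Over all tested genes, Astrocyte had 40.3% higher and 22.0% lower than Neuron as deposited and 32.7% and 29.2% under median-of-ratios scaling. For Oligodendrocyte these splits were 43.9% and 23.6%, and 34.7% and 31.4%. Under that scaling all 76 and all 71 members called here were still called lower. Neither comparison had a member called higher by limma, nor 1 at an unadjusted p under 0.05. In 69 of 77 members the group means ran from NSC through Neuron and Oligodendrocyte down to Astrocyte.

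Oligodendrocyte lay slightly above Astrocyte. The members' median log2 difference was 0.21, against 0.04 over all tested genes. By limma 23 of 77 members were higher in Oligodendrocyte and 0 were lower (0 also at an unadjusted p under 0.05), and the background of genes called higher was 28.7%, so the share of members called was close to that of all genes with all libraries in the fit. For 44 members the Oligodendrocyte libraries were all above the Astrocyte libraries, against 39.6% of all tested genes. The direction of single members also depended on scaling: 14 changed sign under quantile normalization and 4 under median-of-ratios scaling. How many were called depended on single libraries. The limma count fell to 6 without Oligodendrocyte replicate 2, to 13 without Oligodendrocyte replicate 1 or Astrocyte replicate 1, and to 11 without Astrocyte replicate 2. It rose to 44 without Neuron replicate 2, which enters only through the shared estimate of the spread, when 33.3% of all genes were called higher. Without NSC replicate 3, Astrocyte replicate 3 and Neuron replicate 2 together it was 66, against 34.7% of all genes. In those libraries 77, 75 and 77 of the 77 members were the highest of their group. Leaving them out lowers the members' Astrocyte mean and their spread, so the larger count is no separate support for a difference.

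**Figure D3:**
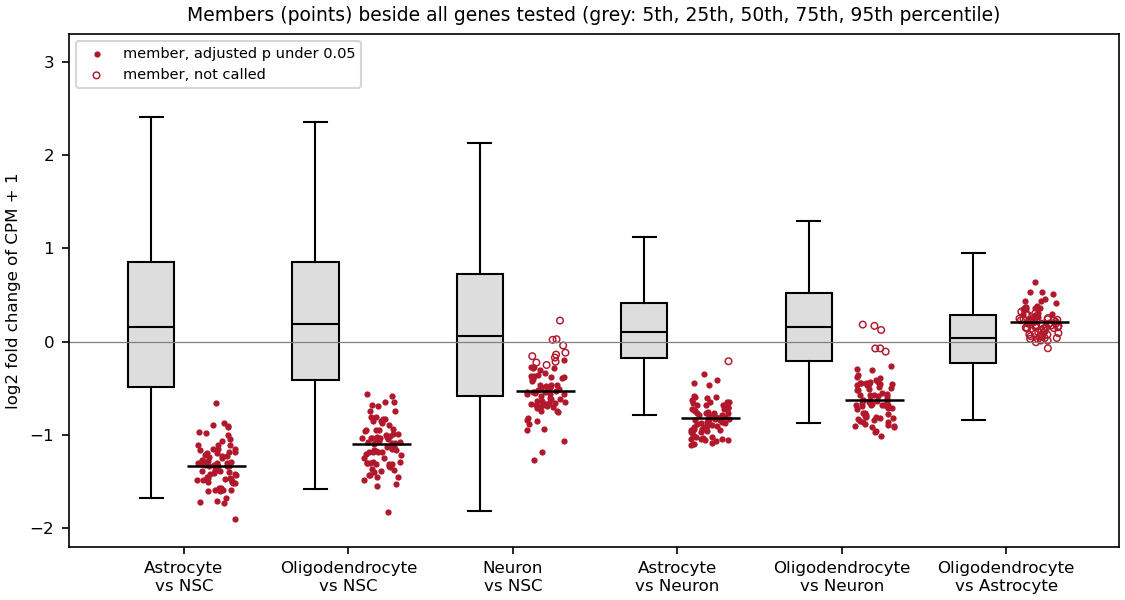
log2 fold change of CPM + 1 for each of the 77 members (red points, filled where limma's adjusted p was under 0.05, black line at their median) beside all 13342 tested genes (grey boxes from the 25th to the 75th percentile, whiskers at the 5th and 95th), in 6 comparisons. The members' medians are -1.33, -1.09, -0.53, -0.82, -0.63 and 0.21 from left to right, and the first 5 lie below the grey boxes' medians.

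Both subunits moved together. In Astrocyte the median log2 fold change from NSC was -1.30 for the large subunit genes and -1.37 for the small subunit genes. In Oligodendrocyte these medians were -1.06 and -1.14, and in Neuron -0.54 and -0.49. The ratio of summed CPM of large to small subunit genes averaged 1.46 ± 0.00551 for NSC and 1.53 ± 0.00721 for Astrocyte (± SD, n = 3 each), 1.51 ± 0.0142 for Neuron (n = 3) and 1.46 ± 0.0127 for Oligodendrocyte (n = 2). The Astrocyte ratios, 1.54, 1.52 and 1.53, did not overlap with the NSC ratios of 1.46, 1.47 and 1.46. Nor did the Neuron ratios, all of which lay above the NSC ratios, although the large subunit had the lower median fold change there. Of the 11 members not called between Neuron and NSC, 6 were of the large and 5 of the small subunit. The rank order of the members by CPM was also kept, with a Spearman correlation across the 77 genes of 0.987 to 0.997 between libraries of a group and 0.904 to 0.946 between day 0 and day 4 libraries.

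Rpl12 had the largest fall of any member in Astrocyte and in Oligodendrocyte. It encodes a protein at the base of the stalk, where the translation factors dock. The gene (ENSMUSG00000038900) is listed at chr2:32817079-32820016 in the table's mm9 coordinates. It measured 525, 496 and 567 CPM in NSC, 210.4, 274 and 215 CPM in Neuron, 148 and 149 CPM in Oligodendrocyte and 133, 131 and 161 CPM in Astrocyte. All day 4 libraries were below all NSC libraries, and Neuron stood above the other media, while Oligodendrocyte lay within the Astrocyte range. The log2 fold change from NSC was -1.90 ± 0.10 (SE; limma adjusted p = 6.49e-10) in Astrocyte, -1.82 ± 0.12 (adjusted p = 4.28e-09) in Oligodendrocyte and -1.19 ± 0.10 (adjusted p = 1.06e-07) in Neuron.

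Rpsa moved in another order. It encodes a protein of the small subunit that is also known as the laminin receptor precursor. The gene (ENSMUSG00000032518) is listed at chr9:120036884-120041487 in mm9. Its values were 912, 889 and 1040.1 CPM in NSC, 359, 449 and 374 CPM in Neuron, 417 and 474 CPM in Oligodendrocyte and 267, 277 and 311 CPM in Astrocyte. Neuron and Oligodendrocyte overlapped, and Astrocyte was below both. The log2 fold change from NSC was -1.73 ± 0.10 in Astrocyte (limma adjusted p = 9.79e-10), -1.27 ± 0.10 in Neuron (adjusted p = 2.94e-08) and -1.08 ± 0.11 in Oligodendrocyte (adjusted p = 5.66e-07). Between Oligodendrocyte and Astrocyte it had the largest rise of the members, 0.64 ± 0.11 (adjusted p = 0.000256).

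Rps2, a small subunit protein near the mRNA entrance of the ribosome, measured 679, 666 and 697 CPM in NSC, 295, 383 and 305 CPM in Neuron, 325 and 388 CPM in Oligodendrocyte and 221, 229 and 289 CPM in Astrocyte. As for Rpsa, only Neuron and Oligodendrocyte overlapped. Its log2 difference between Oligodendrocyte and Astrocyte was 0.54 ± 0.13 (limma adjusted p = 0.00334), a call that was lost without Oligodendrocyte replicate 2. Rps2, Rpsa and Rpl41 were the 3 members whose Oligodendrocyte mean was above the Neuron mean, by 0.12, 0.18 and 0.17 on the log2 scale. None of the 3 differences passed the test (limma adjusted p = 0.406, 0.155 and 0.288). Without the 3 libraries that stood apart they were 0.24, 0.28 and 0.34, and all 3 passed (limma adjusted p = 0.00542, 0.000964 and 4.02e-05). Neuron replicate 2, the highest Neuron library for all 77 members, is among the libraries left out. Leaving it out lowers the Neuron mean and the spread, so these calls are no separate support for a difference.

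The stalk proteins recruit translation factors to the ribosome. Rplp0, which anchors the stalk, measured 873, 858 and 928 CPM in NSC, 648, 789.8 and 676 CPM in Neuron, 463 and 534 CPM in Oligodendrocyte and 369, 380.2 and 413 CPM in Astrocyte. Its libraries formed 4 separate ranges in that order. The log2 fold change from NSC was -0.34 ± 0.09 in Neuron, -0.83 ± 0.10 in Oligodendrocyte and -1.19 ± 0.09 in Astrocyte, each called by limma. For Rplp1 the values were 557, 492 and 599 CPM in NSC, 306, 411 and 326 CPM in Neuron, 305 and 351 CPM in Oligodendrocyte and 234, 252 and 278 CPM in Astrocyte. Neuron and Oligodendrocyte overlapped, with a difference of -0.07 ± 0.12 on the log2 scale (limma adjusted p = 0.614). Rplp2 fell by 1.19, 1.01 and 0.54 on the log2 scale in Astrocyte, Oligodendrocyte and Neuron.

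Rpl5 and Rpl11 form a particle with the 5S ribosomal RNA, which can bind Mdm2 when ribosome assembly is disturbed. Rpl5 measured 648, 629 and 733 CPM in NSC, 456, 610.4 and 484 CPM in Neuron, 255 and 273 CPM in Oligodendrocyte and 258, 254 and 283 CPM in Astrocyte. Oligodendrocyte and Astrocyte overlapped. Rpl5 and Rps9 were the members whose mean was lower in Oligodendrocyte than in Astrocyte, by -0.01 and -0.07 on the log2 scale. These turned to 0.04 and 0.01 without the 3 libraries that stood apart. Rpl11 measured 421, 387 and 469 CPM in NSC, 257, 356 and 271 CPM in Neuron, 186 and 191 CPM in Oligodendrocyte and 160.0, 162 and 193 CPM in Astrocyte. Both genes fell in all 3 comparisons with NSC. The log2 fold changes in Astrocyte, Oligodendrocyte and Neuron were -1.33, -1.34 and -0.38 for Rpl5 and -1.30, -1.17 and -0.54 for Rpl11. Between Oligodendrocyte and Neuron, Rpl5 fell by 0.96 and Rpl11 by 0.63 on the log2 scale (limma adjusted p = 5.87e-06 and 0.000753).

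Rpl3 and Rpl10 lie near the catalytic centre of the large subunit, and Rpl10 joins late in its maturation. Rpl10 is an X-linked gene. It measured 325, 299.99 and 352 CPM in NSC, 245, 295 and 265 CPM in Neuron, 157 and 169.7 CPM in Oligodendrocyte and 129, 128 and 137 CPM in Astrocyte. Only a small step separated Neuron from NSC, -0.28 ± 0.08 on the log2 scale (limma adjusted p = 0.00457), and quantile normalization ended that call. The step to Astrocyte was -1.30 ± 0.08 (adjusted p = 1.86e-09). Rpl3 measured 780.1, 777 and 859 CPM in NSC, 507, 634 and 529 CPM in Neuron, 308 and 324 CPM in Oligodendrocyte and 292, 302 and 349.6 CPM in Astrocyte, with log2 fold changes of -0.54, -1.35 and -1.36. Its Oligodendrocyte libraries lay inside the Astrocyte range.

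Rps6, the substrate of S6 kinase downstream of mTOR, measured 226, 221 and 253 CPM in NSC, 122, 139.6 and 127 CPM in Neuron, 95.8 and 91.9 CPM in Oligodendrocyte and 77.6, 86.3 and 82.2 CPM in Astrocyte. The 4 groups did not overlap. The log2 fold change from NSC was -1.50 ± 0.07 in Astrocyte, -1.30 ± 0.08 in Oligodendrocyte and -0.85 ± 0.07 in Neuron (limma adjusted p = 1.64e-10, 3.06e-09 and 7.74e-08). Rps27a, made as a fusion with ubiquitin, measured 452, 389.5 and 504 CPM in NSC and 135, 140.5 and 166 CPM in Astrocyte. Its values in Neuron were 239, 358 and 262 CPM and in Oligodendrocyte 175 and 184 CPM. It fell by 1.60, 1.31 and 0.66 on the log2 scale in Astrocyte, Oligodendrocyte and Neuron.

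Rps19 and Rps14 are the small subunit genes lost or mutated in Diamond-Blackfan anaemia and the 5q- syndrome respectively. Rps19 measured 363, 343 and 388 CPM in NSC, 179, 225 and 189 CPM in Neuron, 163 and 164 CPM in Oligodendrocyte and 119, 114 and 129 CPM in Astrocyte. It fell in all media, by 1.59 in Astrocyte, 1.15 in Oligodendrocyte and 0.89 in Neuron on the log2 scale. Rps14 measured 269, 244 and 300.1 CPM in NSC, 273, 401 and 288 CPM in Neuron, 152 and 171 CPM in Oligodendrocyte and 130.4, 138 and 178 CPM in Astrocyte. Neuron and NSC overlapped, with a difference of 0.23 ± 0.14 that did not pass the test (limma adjusted p = 0.157). That difference was called after a correction for transcript length, which was fitted within groups and acts mainly on their spread. Over 22 alternatives it lay between 0.05 and 0.33. Astrocyte was below Neuron by 1.09 (adjusted p = 1.77e-05) and Oligodendrocyte by 0.97 (adjusted p = 0.000128) in limma's test on the log2 scale.

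Rpl17 shared the top of both comparisons with Neuron. The protein surrounds the exit of the peptide tunnel. It measured 462, 448 and 514 CPM in NSC, 304, 428 and 311 CPM in Neuron, 171 and 168 CPM in Oligodendrocyte and 151, 153 and 173 CPM in Astrocyte. Its log2 difference from Neuron was -1.11 ± 0.11 in Astrocyte and -1.02 ± 0.12 in Oligodendrocyte (limma adjusted p = 1.67e-06 and 9.23e-06). Rpl23a, a neighbour of the same tunnel exit, measured 491, 476 and 540.0 CPM in NSC, 288, 396 and 286 CPM in Neuron, 164 and 178 CPM in Oligodendrocyte and 159.8, 157 and 183 CPM in Astrocyte. Oligodendrocyte fell inside the Astrocyte range, and its fall from NSC of 1.55 on the log2 scale was second among the members in that medium.

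Rpl22, Rpl38, Rpl39 and Rpl41 are short proteins of the large subunit, of which Rpl38 is known for a role in the translation of Hox mRNAs and the body plan. Rpl22 measured 316, 280.3 and 344 CPM in NSC and 267, 356 and 294 CPM in Neuron, which overlapped (log2 difference -0.04 ± 0.10, limma adjusted p = 0.691). In Oligodendrocyte it measured 166 and 171 CPM and in Astrocyte 159, 165 and 170.3 CPM, below both. Rpl38 also overlapped between NSC (187, 162 and 201 CPM) and Neuron (129, 206 and 143 CPM). Its difference of -0.23 ± 0.15 was not called (limma adjusted p = 0.178), but it was called at -0.35 without the 3 libraries that stood apart (adjusted p = 0.000569). Leaving out Neuron replicate 2 lowers its Neuron mean and spread, so that call is no separate support for a difference. In Oligodendrocyte Rpl38 measured 105 and 124 CPM and in Astrocyte 88.4, 92.1 and 112 CPM.

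Rpl41 is the smallest of these proteins. It measured 352, 329.6 and 366 CPM in NSC, 184, 262 and 181 CPM in Neuron, 225 and 238 CPM in Oligodendrocyte and 163, 173 and 199.9 CPM in Astrocyte. Neuron overlapped with both other media, and Rpl41 was the only member of the 77 not called between Astrocyte and Neuron (-0.21 ± 0.12, limma adjusted p = 0.148). Rpl39, which is X-linked and also lines the tunnel, measured 355, 286 and 390.5 CPM in NSC, 187, 295 and 199 CPM in Neuron, 131 and 157 CPM in Oligodendrocyte and 101, 107 and 139 CPM in Astrocyte. Neuron replicate 2 reached into the NSC range, and the difference was still called (-0.61 ± 0.17, limma adjusted p = 0.00409). Rps4x, the X-linked small subunit gene, measured 787, 741 and 875 CPM in NSC, 538, 706 and 579 CPM in Neuron, 358 and 394 CPM in Oligodendrocyte and 312, 325 and 335 CPM in Astrocyte, 4 separate ranges.

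The range of log2(CPM + 1) over the 11 libraries was widest for Rpl12 (2.10), Rpl36a (2.05) and Rps18 (1.96). Rpl36a measured 224 ± 32.3 CPM (SD, n = 3) in NSC and 67.5 ± 7.02 CPM (SD, n = 3) in Astrocyte, and Rps18 measured 412 ± 36.5 CPM (SD, n = 3) and 124 ± 13.5 CPM (SD, n = 3). The range was narrowest for Rps21 (1.01), Rpl15 (1.07) and Rps28 (1.15). Rps21 measured 140.1, 119.5 and 151 CPM in NSC, 122, 161 and 136 CPM in Neuron, 84.6 and 88.6 CPM in Oligodendrocyte and 79.4, 81.9 and 98.0 CPM in Astrocyte. NSC and Neuron overlapped (0.03 ± 0.11, limma adjusted p = 0.835), and the other media lay below both. Rps27, chosen after its values were seen, shared this pattern with 219, 185 and 266 CPM in NSC, 188, 285 and 209 CPM in Neuron, 116 and 129 CPM in Oligodendrocyte and 104, 103 and 114 CPM in Astrocyte. Rps14, Rps21 and Rps27 were the 3 members whose mean was higher in Neuron than in NSC with all libraries. Without the 3 libraries that stood apart, Rps21 and Rps27 turned to -0.01 and -0.02 and Rps14 stayed at 0.13, none of which passed limma's test (adjusted p = 0.935, 0.807 and 0.0752).

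To see which members departed from the common fall, the libraries were rescaled so that the members' geometric mean was equal in all of them, and limma was run again over all 13342 genes. On this scale Rpl12, Rpl36a and Rps25 were among the members called lower than NSC in all 3 media. By contrast 9 members were higher than NSC in all 3: Rpl15, Rpl22, Rpl37a, Rpl38, Rps14, Rps15, Rps21, Rps27 and Rps28. This scale centres the members, so some must lie above and others below the rest. Of all tested genes 85.1%, 56.4% and 81.5% were called higher on it in Astrocyte, Neuron and Oligodendrocyte, and 6.39%, 19.0% and 7.00% lower. Rpl12 departed by -0.57 in Astrocyte, -0.67 in Neuron and -0.72 in Oligodendrocyte, and Rps21 by 0.66, 0.54 and 0.45 on the log2 scale. Rps14 departed by 0.46, 0.74 and 0.36. The members named here kept all 3 calls without the 3 libraries that stood apart, an alternative added after the data were seen. The members other than the named role genes were chosen after their values were seen, and the comparisons share the NSC libraries.

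The 9 members that fell less had short transcripts, with a median of 474 bases (271 to 802). Only 4 fell more, with a median of 718.5 bases (483 to 1242), and all 77 had a median of 751 bases. Both sets were larger without the 3 libraries that stood apart, and the medians given are for the sets with all libraries. Across the 77 members, which share libraries and are not independent, the Pearson correlation of log10 transcript length with the log2 fold change from NSC was -0.33 in Astrocyte, -0.35 in Oligodendrocyte and -0.24 in Neuron. Between day 4 media it was -0.05 to -0.08. Shorter members thus tended to fall less from day 0 to day 4, by a weak relation, and the part of transcript length in the departures above was not tested.

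Levels between genes are compared per length, in CPM per kilobase of the shortest principal transcript. By the mean of the group means, Rplp1 (741 CPM per kilobase), Rps9 (649) and Rps12 (610) were highest. The order differed by group: Rplp1 led in NSC (1101), Oligodendrocyte (658) and Astrocyte (510.0), and Rps9 in Neuron (788, against 696 for Rplp1). Rpl41 was second in Oligodendrocyte (530.4) and Rps12 in NSC (1037). Rpl24 (46.3), Rps20 (58.9) and Rpl29 (135) were lowest by the mean of the group means. For Rpl24 and Rps20 the annotation holds only a principal transcript of 4920 and 3706 bases, far longer than other members, so their level per length would be higher with a shorter transcript. Leaving those aside, the members spanned 135 to 741 CPM per kilobase.

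**Figure D4:**
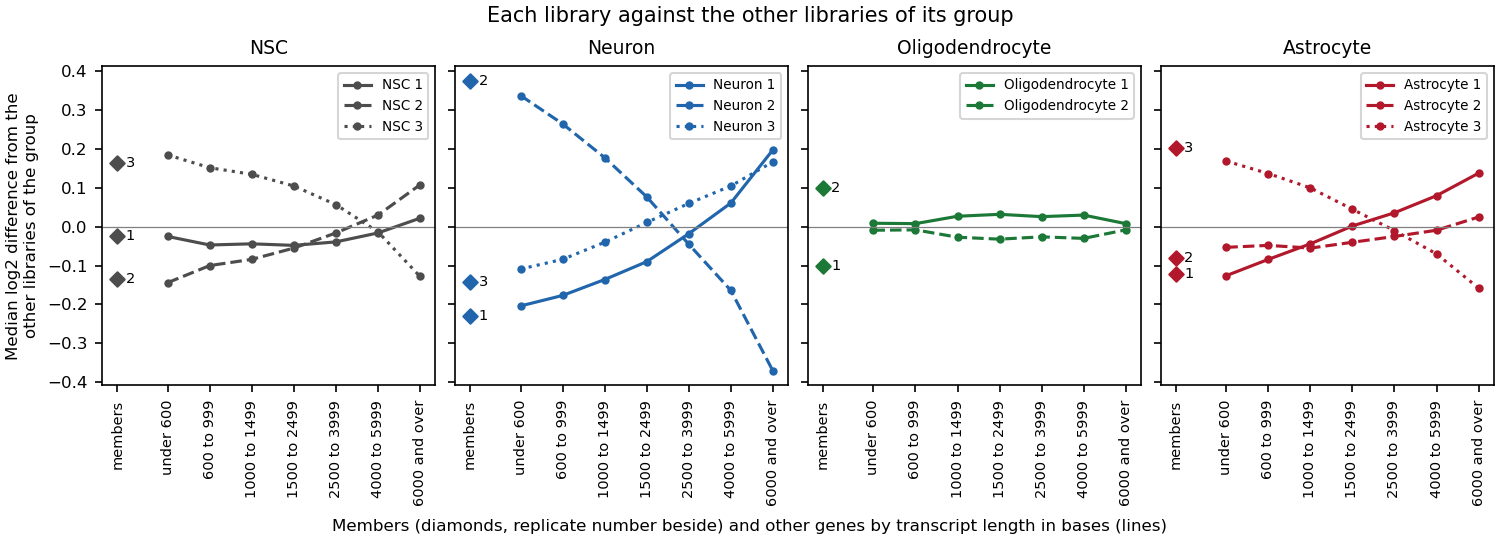
Median log2 difference of each library from the other libraries of its group, for the 77 members (diamonds with the replicate number) and for other genes by transcript length in bases (lines), in 4 panels by group. Neuron replicate 2 runs from 0.338 under 600 bases to -0.371 at 6000 bases and over, NSC replicate 3 and Astrocyte replicate 3 slope the same way, and the Oligodendrocyte libraries are flat by length while their members differ. NSC replicate 2, Neuron replicate 1 and Astrocyte replicate 1 slope the opposite way.

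The 3 libraries named above differed from their groups in short transcripts generally, not in ribosomal protein genes alone. In Neuron replicate 2 the members lay a median of 0.376 above the other Neuron libraries on the log2 scale, with 77 of 77 above. Other genes in that library lay 0.338 above under 600 bases, 0.265 above in the next class, from 600 to under 1000 bases, and -0.371 at 6000 bases and over. NSC replicate 3 (members 0.163, other genes under 600 bases 0.185) and Astrocyte replicate 3 (members 0.204, other genes 0.169) had the same slope, and 77 of 77 members were above the other libraries in each. Some libraries sloped the opposite way. The members lay at -0.134 in NSC replicate 2, -0.231 in Neuron replicate 1 and -0.123 in Astrocyte replicate 1. Other genes under 600 bases lay at -0.144, -0.204 and -0.126 there, and those of 6000 bases and over at 0.108, 0.198 and 0.138. In part this is the same contrast, since each library is set against the others of its group. The Oligodendrocyte libraries had no slope by length, yet their members differed by 0.101 to either side of 0, with 73 of 77 higher in replicate 2. Without the 3 libraries the members called lower were 77 in Astrocyte, 73 in Neuron and 77 in Oligodendrocyte against NSC, and 76 in Astrocyte against Neuron. Between Oligodendrocyte and Neuron 71 were then lower and 3 higher, Rps2, Rpsa and Rpl41. Members called lower in Neuron only without those libraries included Rpl7, Rpl34, Rpl37a, Rpl38, Rps15 and Rps28, of which those other than Rpl38 were chosen after their values were seen. Leaving out Neuron replicate 2 lowers the members' Neuron mean and spread, so calls gained in this way are no separate support for a difference.

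The start regions of 57 members were found among the RefSeq promoter windows (GRCm38.p6, 250 bases before to 50 bases after the annotated start). They are shown because the TOP motif at the start of the RNA is what these mRNAs are known for. A C followed by at least 4 pyrimidines on the gene's strand began exactly at the annotated start in 13 of 57 members (22.8%), against 2.97% of 26968 other genes. Within 5 bases of the start such a run began in 27 of 57 (47.4%), against 21.1% of the other genes, and on the opposite strand in 15.8% against 24.4%. The heptamer CTCTTTC on the gene's strand was in 22.8% of members and 4.56% of other genes, and on the opposite strand in 8.77% and 4.90%. It is itself a pyrimidine run and can overlap the run at the start. The ETS core CCGGAAG on either strand was in 42.1% against 9.86%, the YY1 core AAGATGGC on either strand in 8.77% against 3.18%, and TATAAA on the gene's strand in 8.77% against 9.77%. In the sequences here, 30 bases before to 20 bases from the annotated start, capitals mark the run.
Rpl12, chr2:32961682-32961731 (plus strand): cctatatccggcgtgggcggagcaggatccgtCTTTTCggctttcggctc
Rps6, chr4:86857348-86857397 (minus strand): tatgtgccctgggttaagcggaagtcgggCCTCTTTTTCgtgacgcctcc
Rplp2, chr7:141447621-141447670 (plus strand): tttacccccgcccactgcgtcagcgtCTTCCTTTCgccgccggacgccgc
Rpl38, chr11:114668550-114668599 (plus strand): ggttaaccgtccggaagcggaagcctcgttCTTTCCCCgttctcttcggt
Rps2, chr17:24720033-24720082 (plus strand): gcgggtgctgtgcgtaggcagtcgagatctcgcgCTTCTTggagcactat
Rpsa, chr9:120127736-120127785 (plus strand): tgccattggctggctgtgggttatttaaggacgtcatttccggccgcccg
Rpl41, chr10:128549149-128549198 (minus strand): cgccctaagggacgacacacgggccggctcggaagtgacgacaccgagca

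Rps6 has a run of 10 pyrimidines around its annotated start and Rplp2 a run of 9, while Rpsa and Rpl41 have none within 5 bases of it. The falls were of similar size with and without a run, a difference that was not tested. The 27 members with a run had a median log2 fold change from NSC of -1.30 in Astrocyte, -1.16 in Oligodendrocyte and -0.52 in Neuron. The 30 members without one had medians of -1.33, -1.08 and -0.50. An annotated start can lie some bases from the true one, so a missing run says only that these letters are not there. These coordinates are of GRCm38.p6 and cannot be set beside the mm9 positions above.

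Of 20 other TOP genes, among them elongation factors and other translation proteins, 18 fell in Astrocyte, 19 in Oligodendrocyte and 12 in Neuron against NSC, while 1, 1 and 3 rose. The shares of all tested genes that fell were 35.6%, 32.2% and 39.6%. The medians of the TOP genes were -1.04, -0.90 and -0.37. Npm1, a nucleolar chaperone, fell by 1.87, 1.76 and 1.26 on the log2 scale, and Tmem66, which lies in the endoplasmic reticulum membrane, rose by 1.72, 1.46 and 1.78. Against Neuron, 18 of the 20 were lower in Astrocyte and 16 in Oligodendrocyte (22.0% and 23.6% of all tested genes), led by Eif4b (-1.16 and -1.46) and the elongation factor Eef1a1 (-1.03 and -1.02). Tpt1 measured 1104 ± 65.3 CPM in NSC and 1701 ± 314 CPM in Neuron (SD, n = 3 each), a rise of 0.61 ± 0.11 (limma adjusted p = 0.000226).

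Ribosome biogenesis genes fell in all 3 media. Of 50 genes for nucleolar processing and RNA polymerase I, 47 fell in Astrocyte, 46 in Oligodendrocyte and 48 in Neuron against NSC (35.6%, 32.2% and 39.6% of all tested genes), with medians of -1.28, -1.08 and -1.39. Nop56, a core protein of box C/D particles, fell by 2.10, 1.98 and 2.10 on the log2 scale. Between Astrocyte and Neuron 20 were higher in Astrocyte and 9 lower, with a median of 0.06, close to the 40.3% higher and 22.0% lower of all tested genes. Between Oligodendrocyte and Neuron 23 were higher and 2 lower (median 0.17), where 43.9% of all tested genes were higher and 23.6% lower (median 0.15). The largest rise was that of Rrp12 with 1.71 ± 0.08 (limma adjusted p = 8.13e-10).

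Mitochondrial ribosomal proteins, which serve the separate ribosomes of mitochondria, went the other way between media. Of 72 genes tested, 61 were higher in Astrocyte than in Neuron and 1 was lower, against 40.3% of all tested genes higher, with a median of 0.42. In Oligodendrocyte 57 were higher than in Neuron and 1 was lower, against 43.9% higher, with a median of 0.56. Against NSC their medians were -0.27 in Astrocyte, -0.15 in Oligodendrocyte and -0.64 in Neuron, with 41, 31 and 63 lower and 10, 10 and 1 higher. Of all tested genes 35.6%, 32.2% and 39.6% were lower there and 48.0%, 48.1% and 43.5% higher. By these counts most cytoplasmic members were higher, and most mitochondrial ribosomal protein genes lower, in Neuron than in the other day 4 media.

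**Figure D5:**
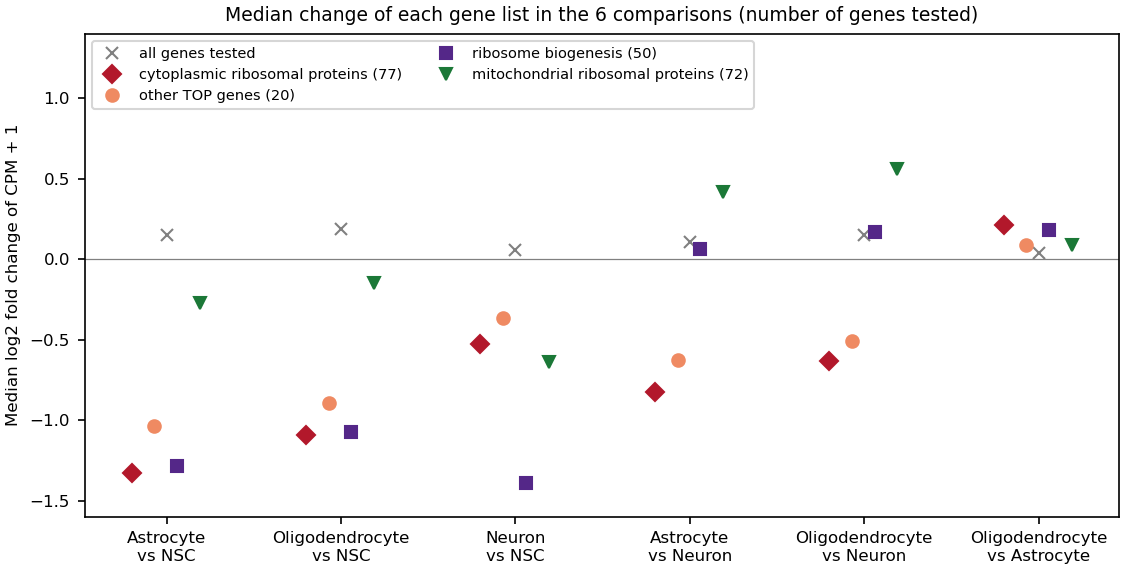
Median log2 fold change of CPM + 1 in 6 comparisons for the 77 members (diamonds), 20 other TOP genes (circles), 50 ribosome biogenesis genes (squares), 72 mitochondrial ribosomal protein genes (triangles) and all tested genes (crosses). In Astrocyte against Neuron the members lie at -0.82, the other TOP genes at -0.63, biogenesis at 0.06 and the mitochondrial ribosomal proteins at 0.42.

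Of 8 tested paralogs and fusions outside the rule, 8 fell in Astrocyte, 8 in Oligodendrocyte and 6 in Neuron against NSC, beside 35.6%, 32.2% and 39.6% of all tested genes. Fau, whose product is cleaved to a small subunit protein, measured 100.2 ± 5.08 CPM in NSC, 102 ± 17.6 CPM in Neuron and 57.1 ± 7.76 CPM in Astrocyte (SD, n = 3 each), and 61.8 ± 3.33 CPM (SD, n = 2) in Oligodendrocyte. The difference between Neuron and NSC did not pass the test (0.02 ± 0.11, limma adjusted p = 0.869). Gnb2l1, the gene of the ribosome-bound scaffold Rack1, fell by 1.57, 1.46 and 0.80 on the log2 scale in Astrocyte, Oligodendrocyte and Neuron. The table also lists 171 pseudogenes named for ribosomal proteins, none above 2.11 CPM. The handling of reads that match several genes is not given in the sources used here, so levels of members with near-identical copies are uncertain to that extent.

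Rps27l, a paralog of Rps27, measured 137 ± 14.8 CPM in NSC, 36.4 ± 4.58 CPM in Neuron and 48.0 ± 1.45 CPM in Astrocyte (SD, n = 3 each), and 87.7 ± 4.43 CPM (SD, n = 2) in Oligodendrocyte. It fell by 1.89 in Neuron on the log2 scale (limma adjusted p = 2.09e-10), where Rps27 differed from NSC by 0.02 (adjusted p = 0.907). Rpl22l1 fell in all 3 media, by 1.38, 1.67 and 1.22, where Rpl22 was not called in Neuron. The differences between paralogs were not tested. Rpl39l was listed at 0 in every library.

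Of 25 genes of translation control and growth signalling, 11 fell and 9 rose in Astrocyte, 10 fell and 9 rose in Oligodendrocyte, and 15 fell and 7 rose in Neuron against NSC. Of all tested genes 35.6% fell and 48.0% rose in Astrocyte, 32.2% and 48.1% in Oligodendrocyte, and 39.6% and 43.5% in Neuron. The list's medians were -0.20, 0.01 and -0.40 in that order, against 0.15, 0.19 and 0.06 over all tested genes. In Astrocyte and Oligodendrocyte the share of the list that fell was only slightly above that of all genes. In Neuron it was further above, with 15 of 25 against 39.6%, and the list was not tested as a set. Myc, a transcription factor that drives ribosome production, measured 98.5 ± 6.04 CPM in NSC, 58.5 ± 5.05 CPM in Neuron and 27.6 ± 4.05 CPM in Astrocyte (SD, n = 3 each), and 21.3 ± 1.29 CPM (SD, n = 2) in Oligodendrocyte. Its log2 fold changes were -0.74, -1.80 and -2.16. Myc was lower in Astrocyte and in Oligodendrocyte than in Neuron, by 1.06 and 1.41. It was also lower in Oligodendrocyte than in Astrocyte (-0.35, limma adjusted p = 0.0144), where the members lay slightly higher. The part of Myc in the levels of the members was not tested. Larp1, which binds TOP mRNAs, had log2 fold changes of -1.37 in Neuron, -1.12 in Astrocyte and -0.78 in Oligodendrocyte. Eif4ebp1, a repressor of cap-dependent translation, fell by 2.35 in Neuron, 1.71 in Astrocyte and 0.37 in Oligodendrocyte. Other members of the Myc family rose. Mycn, at 0.77 ± 0.22 CPM in NSC (SD, n = 3), rose by 0.61, 0.65 and 0.44 in Neuron, Astrocyte and Oligodendrocyte. Mycl1 rose by 1.69, 0.73 and 2.20, and it was higher in Oligodendrocyte than in Neuron by 0.51, where Myc was lower by 1.41.

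Host genes of small nucleolar RNAs, several of which are TOP genes too, fell with the members: 6 of 6 in Astrocyte, 6 of 6 in Oligodendrocyte and 4 of 6 in Neuron, where 2 rose (35.6%, 32.2% and 39.6% of all tested genes fell). Snhg1 fell by 1.99, 1.43 and 1.00 on the log2 scale. Only these 6 of the 10 host genes on the list were found in the data. Against Neuron, 4 of the 6 were lower in Astrocyte and 4 in Oligodendrocyte (22.0% and 23.6% of all tested genes), led by Gas5 (-1.07 and -0.75). The 4 markers of dividing cells were called lower in all 3 comparisons with NSC, with medians of -4.60 in Astrocyte, -4.76 in Oligodendrocyte and -5.30 in Neuron. They were thus lowest in Neuron, where the members were highest among the day 4 media. The part of dividing cells in the fall of the members was not tested.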

How the data were processed

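RNA was measured in 11 libraries (TruSeq Stranded mRNA, sequenced on a HiSeq 2500, per the labels' protocols), 3 each of NSC, Astrocyte and Neuron and 2 of Oligodendrocyte. The deposited values are CPM (read counts scaled to a common library total) that the authors computed per gene; their mean and SD columns were not used. The submitters' processing notes name bcl2fastq 1.8.4, TopHat2 2.0.8, HTSeq 0.6.1, edgeR 3.2.4, R 3.0.0 and HOMER with the build NCBIM37 (mm9), without roles or order. The handling of reads that match several genes is not given in the sources used here.

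Tested genes (13342 of 37991) reached 1 CPM in 2 or more of the libraries. They were analysed as log2(CPM + 1), pseudocount 1, in a single limma 3.58.1 fit over all 11 libraries (R 4.3.3, trended eBayes). P-values were adjusted by Benjamini-Hochberg over all tested genes in each of 6 comparisons, and calls were made below an adjusted p of 0.05. Fold changes on this scale understate changes of low genes. The 3 comparisons with NSC share its libraries. The scripts were tested on simulated data. Values were prepared with Python 3.11.15 and pandas 2.3.3.

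Lengths are of the shortest principal transcript in the GENCODE annotation of GRCm38, matched for 97.6% of tested genes and all 77 members. Promoter windows are from RefSeq (GRCm38.p6). Depth was estimated from the smallest steps between CPM values. At that depth replicate libraries varied 33.6 to 390.5 times more than counting alone gives for the members (ratio of variances), so library differences and not counting set the precision.

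Members with values in the text were the 2 largest falls and rises per comparison among called members whose groups did not overlap, members with a textbook role (the stalk genes, Rpsa, Rpl3, Rpl5, Rpl10, Rpl11, Rpl22, Rpl38, Rpl39, Rpl41, Rps4x, Rps6, Rps14, Rps19 and Rps27a), the 3 widest and 3 narrowest ranges, and the 3 highest and lowest levels per length. The members and all gene lists were chosen with earlier results of these data known. Alternatives changed the pseudocount, filter, scaling, length correction, variance trend, libraries in the fit and replicate block. Results for a few genes are not reported here.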

Additional observations from a re-analysis of the deposited data

Results flagged for a closer look

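Rps14, Rps21 and Rps27 were picked out because their mean stood above NSC in Neuron and below it in the other media, with a direct test of the difference between media. That difference is not particular to them: by limma 76 of the 77 members were lower in Astrocyte, and 71 in Oligodendrocyte, than in Neuron, and Rpl17 differed more (-1.11 and -1.02). The p-values here belong to genes chosen partly by them. In Astrocyte against Neuron the difference was -1.09 for Rps14, -0.68 for Rps21 and -1.06 for Rps27 on the log2 scale (limma adjusted p = 1.77e-05, 0.000113 and 2.49e-05). In Oligodendrocyte against Neuron it was -0.97, -0.67 and -0.87 (limma adjusted p = 0.000128, 0.000289 and 0.000333). These genes measured 0.23, 0.03 and 0.02 above NSC in Neuron, none of which passed the test (limma adjusted p = 0.157, 0.835 and 0.907). For Rps21 and Rps27 that direction rested on the libraries that stood apart: without NSC replicate 3, Astrocyte replicate 3 and Neuron replicate 2 the values were 0.13, -0.01 and -0.02. They fell by 0.87, 0.66 and 1.04 in Astrocyte and by 0.74, 0.65 and 0.85 in Oligodendrocyte. Every Neuron library was above every Astrocyte and Oligodendrocyte library for each of the 3 genes. With 2 or 3 libraries a group, no group was large enough to test for a single outlying library.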

How the results depend on the processing

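The falls from NSC to Astrocyte and Oligodendrocyte were called for 77 members whichever single library was left out, and Astrocyte against Neuron for 76. Leaving out each library in turn gave 60 to 73 calls in Neuron against NSC, 63 to 71 in Oligodendrocyte against Neuron, and 6 to 44 in Oligodendrocyte against Astrocyte, where 23 were called with all libraries. That last count was 14 without a filter on low values, 13 under median-of-ratios scaling, 11 under quantile normalization, 50 after correction for transcript length, 41 with only both groups in the fit, and 66 without NSC replicate 3, Astrocyte replicate 3 and Neuron replicate 2. Median-of-ratios scaling moved the median of all tested genes from 0.15 to -0.01 in Astrocyte and from 0.19 to 0.00 in Oligodendrocyte against NSC, and the members' medians to -1.51 and -1.31. Quantile normalization gave 30.4% of all genes higher and 32.3% lower in Astrocyte against Neuron, 31.9% and 34.5% in Oligodendrocyte against Neuron, and 37.6% and 41.3% in Oligodendrocyte against NSC. The length correction was fitted within groups and acts mainly on their spread, so it cannot test a length effect between groups. It left the median of all tested genes at 0.04 in Oligodendrocyte against Astrocyte. Its 50 calls there are thus no separate support for a difference.

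Scaling to the members removes their common change by construction. It left 30 calls in Astrocyte (15 higher, 15 lower), 33 in Neuron (18 and 15) and 35 in Oligodendrocyte (16 and 19) against NSC, where 85.1%, 56.4% and 81.5% of all genes were called higher and 6.39%, 19.0% and 7.00% lower. It left 22 in Astrocyte and 29 in Oligodendrocyte against Neuron, and 6 in Oligodendrocyte against Astrocyte. The medians in that order became -0.002, -0.014, 0.012, -0.011, -0.037 and -0.008. Against NSC, 37 members changed sign in Astrocyte, 33 in Neuron and 39 in Oligodendrocyte, Rps21 (0.66 and 0.45) and Rps27 (0.28 and 0.26) among them in Astrocyte and Oligodendrocyte. Of the members with a textbook role or a leading fall or rise, those in Astrocyte were Rpl10 (0.026), Rpl11 (0.022), Rpl22 (0.41), Rpl38 (0.42), Rpl41 (0.36), Rplp0 (0.14), Rplp1 (0.22), Rplp2 (0.13), Rps14 (0.46) and Rps4x (0.03). In Neuron they were Rpl10 (0.23), Rpl17 (0.05), Rpl22 (0.47), Rpl38 (0.29), Rpl5 (0.13), Rplp0 (0.18) and Rps4x (0.11). In Oligodendrocyte they were Rpl10 (0.12), Rpl22 (0.22), Rpl38 (0.42), Rpl41 (0.52), Rplp0 (0.28), Rplp1 (0.37), Rplp2 (0.10), Rps14 (0.36), Rps2 (0.17), Rps4x (0.022) and Rpsa (0.025).

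The replicate numbers did not pair the libraries: same-numbered libraries correlated at -0.505 to 0.415 in their deviations, and 6 of 15 pairs were over 0.1. With the replicate number as a block, 77, 66, 77, 76, 67 and 24 members were called in the order Astrocyte, Neuron and Oligodendrocyte against NSC, Astrocyte and Oligodendrocyte against Neuron, and Oligodendrocyte against Astrocyte.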
